A study of Arabidopsis lyrata and Arabidopsis thaliana with 9 samples.

Results

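The ARGONAUTE (AGO) family of Arabidopsis thaliana was examined in the RNA of its inflorescences. Its 10 members, AGO1 to AGO10, were taken by their locus numbers from the deposited tables, which list 27176 gene models, and each locus was found there as 1 model. The 10 genes were chosen by family and not by any measured value. The inflorescences came from wild-type plants of the strain Col-0 that had bolted, that is, had sent up a flowering stem, and were raised in long days in a greenhouse. There were 3 replicates, each a directional (strand-marking) RNA-seq library made from total RNA. The labels do not say whether they were separate plants. An inflorescence holds meristems, floral organs and flowers of several ages, so each value is an average over many cell types, and in such bulk samples fewer cells of a type and less RNA per cell cannot be told apart. The series also holds 3 leaf and 3 inflorescence libraries of wild-type A. lyrata after bolting, whose tables name genes only by number. None of their 32644 identifiers matched the A. lyrata gene table used here, so AGO genes were not followed in that species, and no comparison between tissues or species was made.

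ARGONAUTE proteins hold a small RNA and use it as a guide to matching RNA or chromatin. Once loaded, they can cut the matching RNA, block its translation, or bring enzymes that methylate DNA. Plants have several ARGONAUTE proteins that sort microRNAs and small interfering RNAs (siRNAs) among themselves, and by sequence the A. thaliana family falls into an AGO1/5/10 group, an AGO2/3/7 group and an AGO4/6/8/9 group. Some AGO mRNAs are themselves targets of microRNAs: AGO1 of miR168, and AGO2 of miR403, with AGO3 also named as a target in the reference annotation.

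The sequences that tie the family to these microRNAs are shown first, because they set the members apart before any level is considered. They were read from the assembly TAIR10.1 as RNA, 5′ to 3′. In the microRNAs, capitals mark the seed (bases 2 to 8). In the sites, capitals mark the bases that face the seed.
miR168a: uCGCUUGGugcaggucgggaa
site in AGO1: uucccgagcugcaUCAAGCUa
miR403-3p: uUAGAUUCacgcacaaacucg
site in AGO2: ggaguuugugcguGAAUCUAa
site in AGO3: gauguuugugcguGAAUCUAa
The AGO1 site lies in the coding part of exon 2, at chr1:17891529-17891549 on the minus strand. It has 3 positions without a standard base pair, of which 1 is a G:U pair, and 2 of the 3 face the seed. No other of the 26690 models with a reference sequence had a stretch with so few unpaired positions, so 1 model (0.00375%) held such a match. The 21 bases are shown in capitals in their surroundings at chr1:17891499-17891579.
AGO1 mRNA: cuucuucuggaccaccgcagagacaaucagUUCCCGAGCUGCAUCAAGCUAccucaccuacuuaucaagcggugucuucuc
The AGO2 site lies in the 3′ untranslated region at chr1:11185223-11185243 on the plus strand and leaves 1 position unpaired, which again was found in 1 of the 26690 models (0.00375%). The AGO3 site, at chr1:11192399-11192419 in the 3′ untranslated region, leaves 3 positions unpaired, as few as in 2 models in all (0.00749%), AGO2 and AGO3 themselves. All bases facing the miR403 seed were paired in both. Outside these genes, the best match to miR168a among the other 9 members left 6 to 10 positions unpaired. The best match to miR403-3p among the 8 members other than AGO2 and AGO3 left 6 to 9. AGO10, the closest relative of AGO1 by coding sequence, had no stretch with fewer than 8 unpaired positions to miR168a. In a scan of all annotated mature microRNAs, matches with at most 3 unpaired positions were otherwise found only for miR5658 in AGO10 and for miR5021 and the miR854 family in AGO7. Such matches are less particular than those above. As well as these genes did, 42 models (0.157%) matched miR5658, 259 (0.970%) matched miR5021 and 21 (0.0787%) matched miR854a. These are matches of letters and not measured cuts, and the loci of MIR168a, MIR168b and MIR403 were not among the models counted here.

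Together the 10 genes took 6015, 12289 and 5797 counts in libraries 1, 2 and 3. This corresponds to 960.3, 878 and 916 CPM (counts per 1000000 counts of the library), or 918 ± 41.4 CPM (mean ± SD over the 3 libraries, as throughout). Most of it came from 4 members. AGO1, AGO4, AGO9 and AGO10 held 89.6% ± 1.14 of the counts of the family, and AGO1 alone held 43.4% ± 1.27. By group, AGO1/5/10 held 62.4% ± 0.892, AGO4/6/8/9 held 31.1% ± 1.15 and AGO2/3/7 held 6.50% ± 0.590. All 10 members had at least 1 count, beside 83.4% of all models, and AGO8 had only 1. At 10 CPM or more stood 7 members, beside 48.4% of all models. The median of the members was 28.98 CPM, beside 8.91 CPM for all models. These CPM values do not allow for gene length. Divided by exon length in kilobases, the medians lay closer, at 8.37 for the members and 5.90 for all models with a known length.

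**Figure D1:**
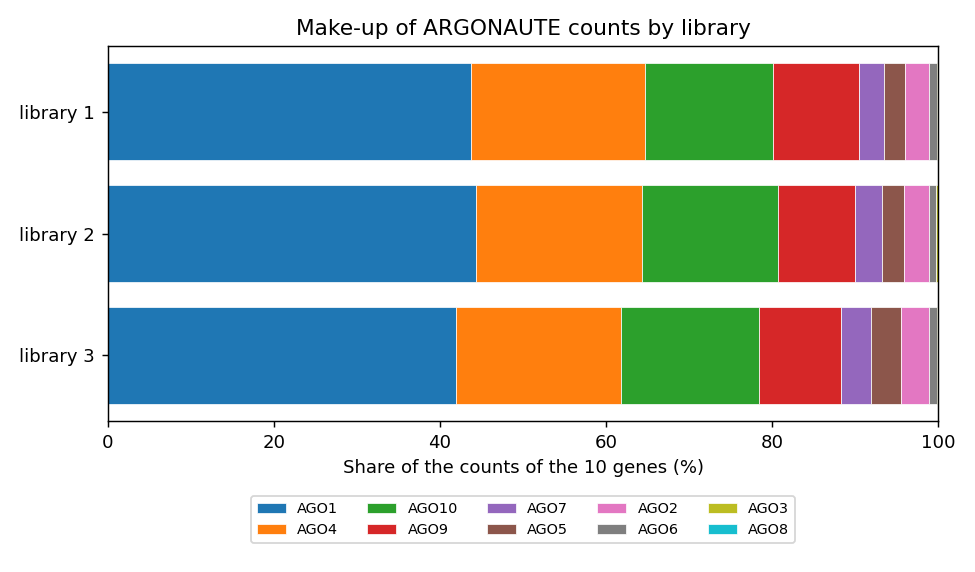
Share of the counts of the 10 AGO genes taken by each gene (horizontal axis, in percent), with 1 bar per A. thaliana inflorescence library. The bars look alike, with AGO1 at 43.8%, 44.4% and 41.9% in libraries 1, 2 and 3, and the shares of AGO3 and AGO8 are too small to be seen.

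To set genes side by side, CPM was divided by the exon length of the counted model in kilobases (CPM per kb). On this scale the order was AGO1, AGO4, AGO10, AGO9, AGO7, AGO5, AGO2, AGO6, AGO3 and AGO8. Of the 9 neighbouring pairs in this order, 7 did not overlap over the 3 libraries and kept their order within each library. The exceptions were AGO7 with AGO5 and AGO5 with AGO2, whose ranges overlapped. AGO5 stood at 0.971, 0.953 and 1.16 times AGO2 in libraries 1, 2 and 3, so its place above AGO2 rests on library 3 alone. Levels fell into an upper set of 4 genes (29.6 to 110.1 CPM per kb), a middle set of 3 (7.79 to 8.68), then AGO6 at 2.72, AGO3 at 0.426 and AGO8 at the limit of detection. The lowest gene of the upper set, AGO9, exceeded the highest of the middle set, AGO7, by 3.87, 3.30 and 3.08 times in libraries 1, 2 and 3.

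**Figure D2:**
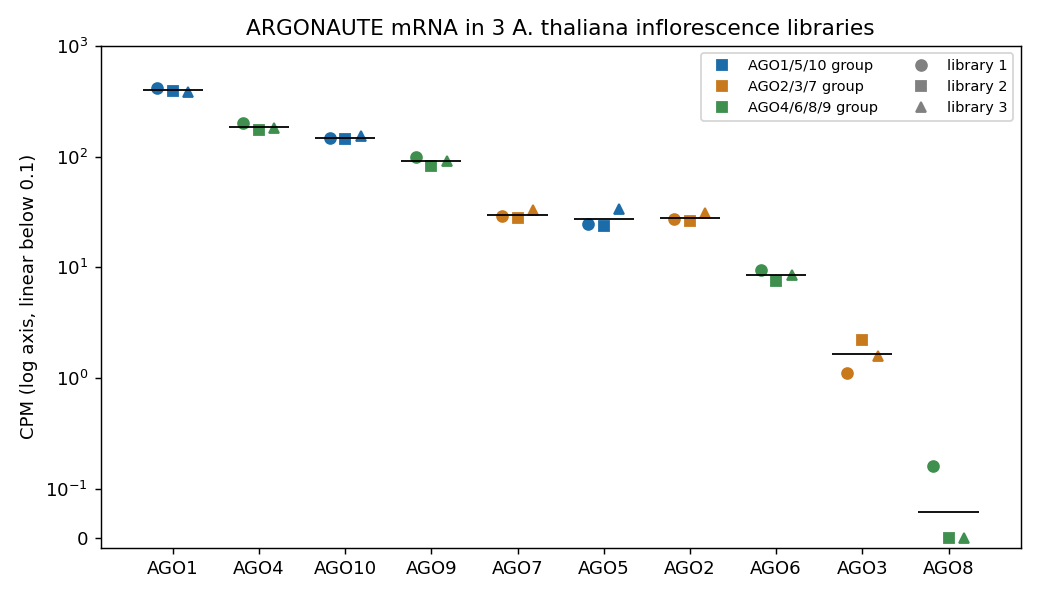
Level of each AGO gene in the 3 A. thaliana inflorescence libraries in CPM (vertical axis, logarithmic and linear below 0.1), with 1 symbol per library, a line at the mean, and genes ordered by mean CPM per kb of exon. The upper 4 genes stay above 80 CPM in every library, and AGO8 has a count in library 1 alone.

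In the AGO1/5/10 group, AGO1 was the highest of all members. AGO1 (AT1G48410, minus strand, chr1:17886036-17892632, 22 exons) is the main partner of microRNAs and cuts their target mRNAs. It had 420.3, 389 and 384 CPM in libraries 1, 2 and 3, or 110.1 ± 5.42 CPM per kb, a level that exceeded that of 96.5% of the 26690 models with a known length. Its lowest library remained far above the highest library of AGO4, at 106 against 62.1 CPM per kb. AGO10 (AT5G43810, plus strand, chr5:17610744-17616907, 20 exons), also called PINHEAD or ZWILLE, is known to keep shoot meristems active by withholding a microRNA family from AGO1. It had 148, 144 and 152 CPM, or 40.3 ± 1.16 CPM per kb, above 88.7% of models. The level of AGO1 per kb was 2.73 ± 0.166 times that of AGO10, with ratios of 2.89, 2.75 and 2.56 in the single libraries. Of the members at 10 CPM or more, AGO10 had the least spread, with a coefficient of variation of 2.89%, about what counting alone gives (2.96%). AGO5 (AT2G27880, plus strand, chr2:11871378-11876989, 20 exons) acts in the germ line, in the cells that form gametes and those around them. It had 24.7, 23.6 and 33.3 CPM, or 8.06 ± 1.57 CPM per kb. AGO1 exceeded it by 15.9, 15.4 and 10.8 times per kb, the lower ratio coming from library 3, where AGO5 was highest.

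The AGO4/6/8/9 group works mainly in RNA-directed DNA methylation, in which siRNAs guide DNA methyltransferases to transposons and repeats. Its members ranged from AGO4, next below AGO1, down to AGO8, the lowest of the family. AGO4 (AT2G27040, minus strand, chr2:11536502-11542391, 23 exons), the general effector of this pathway, had 201, 175 and 182 CPM. Its 57.4 ± 4.17 CPM per kb exceeded 92.5% of models. AGO9 (AT5G21150, plus strand, chr5:7192239-7198381, 23 exons) is known from ovules, where it limits the number of cells that enter the female germ line. It had 99.9, 81.8 and 90.8 CPM, or 29.6 ± 2.94 CPM per kb, above 83.96% of models. AGO6 (AT2G32940, minus strand, chr2:13971916-13977521, 23 exons), which shares targets with AGO4 in shoot meristems, was much lower at 9.42, 7.57 and 8.53 CPM, or 2.72 ± 0.296 CPM per kb. The 3 genes kept close proportions between libraries. AGO4 stood 1.91, 2.03 and 1.90 times above AGO9 per kb, and AGO9 stood 10.8, 10.98 and 10.8 times above AGO6. AGO6 rests on 59, 106 and 54 counts, for which counting alone gives a coefficient of variation of 12.3%. Its ratios therefore agree more closely than these counts can resolve. Each of AGO4, AGO9 and AGO6 was highest in library 1 and lowest in library 2.

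AGO8 (AT5G21030, minus strand, chr5:7139817-7144272, 21 exons) is often regarded as a pseudogene, though the annotation used here lists it as protein-coding. It had 1 count in library 1 and none in libraries 2 and 3. Over all 26598287 counts this is 0.0376 CPM, with an exact 95% counting interval of 0.000952 to 0.209 CPM. AGO9, its closest relative, had 2347 counts, a ratio per kb of 2006 with a counting interval of 360 to 79259. These limits cover counting error only. AGO8 and AGO9 lie 47.97 kb apart on chromosome 5, on opposite strands, with 12 protein-coding genes between them.

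In the AGO2/3/7 group, AGO7 and AGO2 stood at nearly the same level and AGO3 far lower. AGO7 (AT1G69440, minus strand, chr1:26101407-26105328, 3 exons), also called ZIPPY, starts the production of trans-acting siRNAs that restrain auxin response factors. It had 28.9, 27.8 and 33.02 CPM, or 8.68 ± 0.801 CPM per kb. AGO2 (AT1G31280, plus strand, chr1:11181504-11185396, 3 exons) acts in defence against viruses and in DNA repair. It had 27.1, 26.4 and 30.6 CPM, or 7.79 ± 0.628 CPM per kb. The ratio of AGO7 to AGO2 per kb was 1.11 ± 0.0136, so AGO7 was slightly higher in each of the 3 libraries although the ranges of the genes overlapped. The ratio rests on 181, 389 and 209 counts of AGO7 and 170, 370 and 194 of AGO2. Counting alone gives coefficients of variation of 6.59% and 6.80% for these genes, so the SD understates the error of the ratio. AGO3 (AT1G31290, plus strand, chr1:11188293-11192573, 3 exons), the nearest relative and neighbour of AGO2, had 7, 31 and 10 counts. These correspond to 1.12, 2.21 and 1.58 CPM, or 0.426 ± 0.143 CPM per kb. AGO2 stood 25.9, 12.7 and 20.7 times above AGO3 per kb, and the spread of this ratio was wide. The loci lie 2.90 kb apart on the same strand with 0 protein-coding genes between them, and their sites for miR403 are those printed above.

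**Figure D3:**
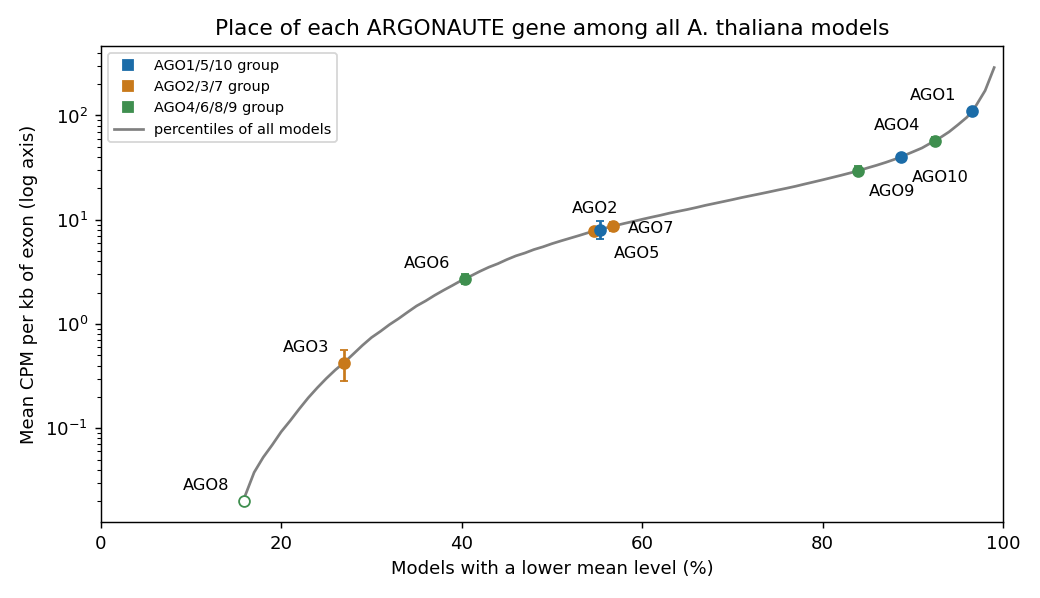
Mean level of each AGO gene in CPM per kb of exon (vertical axis, logarithmic) against the percentage of A. thaliana models with a lower mean, with the percentiles of all models as a grey line and bars for 1 SD over 3 libraries. The bar of AGO8 (open symbol) is left out because its SD exceeds its mean. AGO1 lies above 96.5% of models and AGO8 above 15.9%.

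How far reads of 1 member could match another was checked on the sequences. Coding sequences of AGO2 and AGO3 were identical at 81.1% of aligned bases and those of AGO8 and AGO9 at 78.4%, the highest values among the 45 pairs. AGO4 and AGO9 followed at 68.7% and AGO1 and AGO10 at 68.5%. The 12 pairs within groups had a median of 64.3%, and the 33 pairs between groups 60.6%, with a range of 58.5% to 62.6%. AGO7 stood apart within its own group, at 60.6% to AGO2 and 60.8% to AGO3. The longest stretch without a difference is shown for each close pair, with no base marked, as DNA of the coding strand.
AGO2 and AGO3: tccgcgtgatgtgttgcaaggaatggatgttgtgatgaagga
AGO8 and AGO9: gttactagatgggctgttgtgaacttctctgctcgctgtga
The first is 42 bases long and lies at chr1:11182864-11182905 in AGO2 and chr1:11190054-11190095 in AGO3. The second is 41 bases long and lies at chr5:7142073-7142113 in AGO8 and chr5:7195761-7195801 in AGO9. Of all windows of 36 bases in its exons, AGO3 shared 0.578% with another model, AGO2 0.617%, AGO8 0.231%, AGO9 0.197% and AGO7 0.0880%, and the other 5 members shared none. No window of 50 bases was shared by any member. At these window lengths, nearly every position of each member was unique among the counted models, and none of the 10 overlapped another annotated gene on either strand. The read length and the counting rule were not known.

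**Figure D4:**
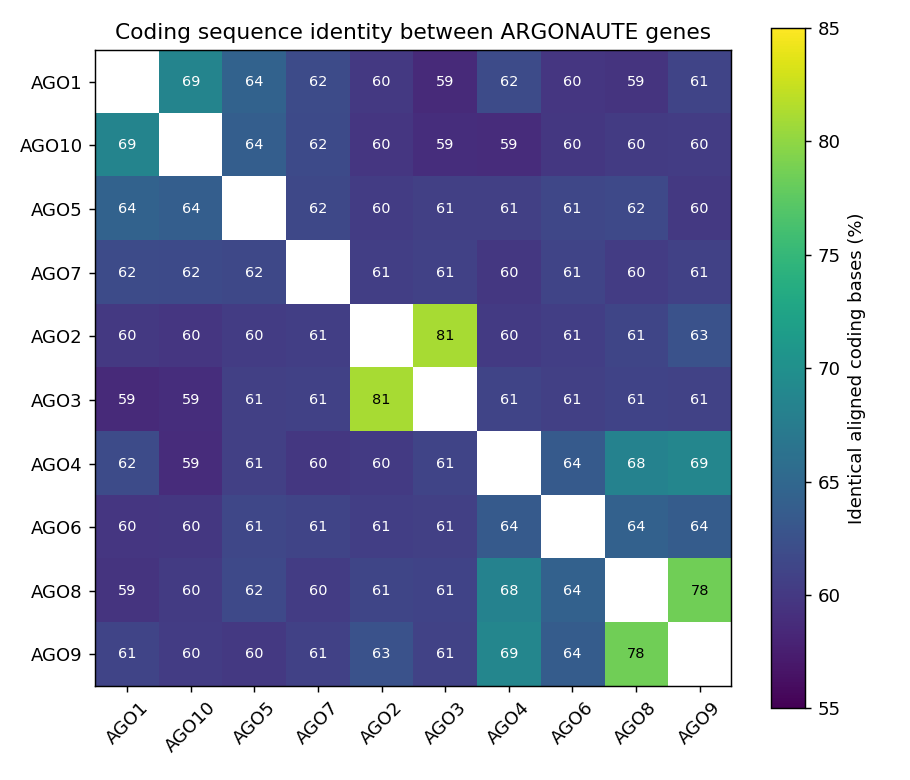
Percentage of aligned coding bases that are identical between each pair of AGO genes (rows and columns, colour and printed number rounded to whole percent). AGO2 with AGO3 (81.1%) and AGO8 with AGO9 (78.4%) stand above all other pairs.

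The libraries held 6263918, 14004158 and 6330211 counts, so library 2 measured low genes with the least counting error. Each pair of libraries differed by more than counting noise, with a mean chi-square per model of 2.45 to 3.56 where pure counting gives about 1. None was thus a mere re-reading of another, but this does not show whether they came from separate plants. All 6 markers of floral organs were present, with LFY (a floral meristem regulator) the lowest at 5.43, 2.07 and 2.05 CPM. The 5 ovule markers ranged from INO at 3.03, 2.78 and 2.84 CPM to ANT at 82.1, 79.3 and 86.7 CPM in libraries 1, 2 and 3. The egg cell markers EC1.1 and EC1.2 were near 0. Shoot and floral meristem markers summed to 64.8, 80.0 and 77.2 CPM, and meiocyte markers to 24.4, 19.6 and 23.1 CPM, in libraries 1, 2 and 3. Seed markers summed to at most 0.639 CPM, while among the root markers COBL9 reached 5.57 to 6.79 CPM. The 5 pollen markers differed widely, with summed levels of 667, 921 and 424 CPM in libraries 1, 2 and 3.

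Whether a gene differed between the 3 libraries beyond counting error was asked with a Pearson chi-square test of its counts, adjusted by Benjamini-Hochberg over 18970 models. This compares the libraries with each other, not conditions. Of all models tested, 11.1% passed at an adjusted p under 0.05, and 22.2% of those at 50 CPM or more. Of the 9 members that could be tested, 4 passed, and AGO8 had too few counts. AGO4 (adjusted p = 0.0131) and AGO9 (adjusted p = 0.00859) differed by 1.15 and 1.22 times between their highest library, library 1, and their lowest, library 2. AGO1 differed by 1.09 times, highest in library 1 and lowest in library 3 (adjusted p = 0.0331). These differences were small and rest on 4860, 2347 and 10518 counts of AGO4, AGO9 and AGO1. AGO10, with 3898 counts, did not pass (adjusted p = 0.691).

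AGO5 was the member with the largest such difference among the 4. It was 1.41 times higher in library 3 than in library 2 (adjusted p = 0.00662), with library 1 close to library 2. All 5 pollen markers passed the same test and were lowest in library 3, with their summed level in the opposite order to AGO5. The sperm cell markers summed to 9.74, 13.5 and 10.3 CPM and the ovule markers to 144, 132 and 147 CPM in libraries 1, 2 and 3, and of the ovule genes STK alone passed the test, at 17.7, 12.3 and 19.1 CPM. The part of these cells in the AGO5 result was not tested. Of the markers outside the pollen and ovule lists, LFY alone passed the same chi-square test (adjusted p = 0.00199), highest in library 1. Every one of the 4 calls of AGO genes needed particular libraries. The AGO5 call was lost without library 3 (adjusted p = 0.908) or library 2 (0.0635). The AGO9 call was lost without library 1 (0.280) or library 2 (0.405), and the AGO4 call likewise (0.720 and 0.133). The AGO1 call was lost without library 1 (0.682) or library 3 (0.0931). AGO2, AGO3, AGO6 and AGO7 did not pass either (adjusted p of 0.399 to 0.673), although AGO2, AGO7 and AGO10 were, like AGO5, highest in library 3 and lowest in library 2.

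**Figure D5:**
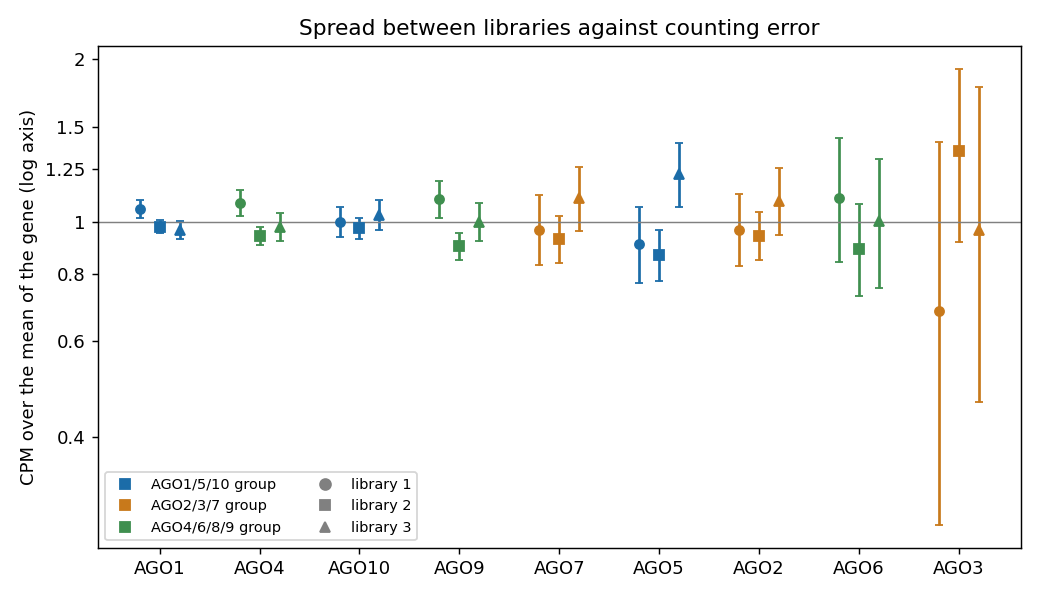
CPM of each library divided by the mean CPM of the gene (vertical axis, logarithmic) for the 9 AGO genes that could be tested, with exact 95% counting intervals as bars. AGO5 in library 3 lies above its other libraries, and the bars of AGO3, which had 7, 31 and 10 counts, are the widest.

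Genes that act with the family were all detected, at levels that varied widely. All 48 genes of 5 lists stood at 1 CPM or more, a low mark. The share of all models at that mark was not taken, but 48.4% reached the higher mark of 10 CPM. Genes that load, import or remove AGO proteins had the highest list median, 28.2 CPM per kb, beside 5.90 for all models. Their upper members were SKP1, a ubiquitin ligase subunit, at 168 ± 13.3 and HSP90.2, a chaperone of the HSP90 class that loads AGO1, at 142 ± 7.54 CPM per kb. The lower ones were SQN, a cyclophilin that assists AGO1, at 8.52 ± 0.954 and HSP90.1, a stress-inducible chaperone of that class, at 2.88 ± 0.723 CPM per kb. HSP90.2, HSP90.3 and HSP90.4 shared 22.8%, 23.9% and 18.7% of windows of 50 bases with each other, so their separate levels are uncertain. SQN shared 2.60% of such windows with other models. FBW2, the F-box protein that marks AGO1 for removal, is neither among the highest nor the lowest of its list and was added with its value known, at 38.3 ± 0.870 CPM per kb. Of this list 3 of 9 genes passed the between-library test (SKP1, HSP90.2 and HSP90.3), each highest in library 3. Beside this, 11.1% of all models tested passed, and 22.2% of those at 50 CPM or more. The calls of HSP90.2 and HSP90.3 may not be independent, given their shared windows.

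The 15 partners of AGO4 in RNA-directed DNA methylation had a median of 9.63 CPM per kb. Of them 0 passed the between-library chi-square test, beside 11.1% of all models tested. At an unadjusted p under 0.05 there was 1, but the share of all models at that looser mark was not taken. IDN2, which binds RNA duplexes, and NRPD2, the subunit shared by RNA polymerases IV and V, were highest at 50.1 ± 0.227 and 22.4 ± 1.30 CPM per kb. RDM1, at 3.44 ± 0.205, and NRPD1, the large subunit of polymerase IV, at 2.60 ± 0.409 were lowest. RDM1 shared 67.8% and NRPD2 9.34% of windows of 50 bases with another model, so both are less certain, and IDN2 shared 4.20%. In mean CPM per kb AGO4 stood above every gene of this list, and AGO9 above every one but IDN2. Of 9 genes of microRNA maturation (median 14.3 CPM per kb), CBP20 and SE, which act on the primary transcripts, were highest at 37.2 ± 0.931 and 34.2 ± 1.60, and HST and HEN1, the factors of export and methylation, lowest at 10.2 ± 0.142 and 8.37 ± 0.548. Of 10 genes of double-stranded RNA synthesis and siRNA dicing (median 11.4), SGS3 and DRB4 were highest at 22.2 ± 1.096 and 15.1 ± 0.818 and SDE5 and RDR2 lowest at 6.60 ± 0.412 and 4.49 ± 0.298 CPM per kb. In these lists 0 of 9 and 0 of 10 genes passed the between-library chi-square test, beside 11.1% of all models tested. At an unadjusted p under 0.05 there were 0 and 2, again without a share of all models to set beside them. In mean CPM per kb AGO1, AGO4 and AGO10 each stood above every gene of both lists. Of 5 genes of small RNA decay, URT1, which adds uridines to RNA, and SDN3, an exonuclease, were highest at 37.8 ± 3.66 and 19.7 ± 1.199, and HESO1, another uridine-adding enzyme, and SDN1 lowest at 9.53 ± 0.302 and 7.72 ± 1.02 CPM per kb. HESO1 shared 10.9% of windows of 50 bases with another model and is less certain, and SDN1 and SDN3 shared 2.10% and 1.61%. URT1 alone of these 5 genes passed the between-library test, beside 11.1% of all models tested, with its lowest value in library 3.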

How the data were processed

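The deposited files hold raw counts, 1 table per library, as the authors deposited them. The values are whole numbers with library totals that differ. Libraries were directional and made from total RNA, per the labels' protocols, and the submitters' processing notes name TAIR10. The aligner, the counting tool, its strand setting and the read length were not stated in the labels or file headers. The labels gave groups and replicate numbers. They do not say whether replicates were separate plants. The p-values measure how far the counts of these libraries depart from counting error, and not a spread between plants.

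CPM used raw library totals. Lengths, positions and sequences came from RefSeq's TAIR10.1 annotation and assembly, in which 26690 models had a length and 486 had none, and all 10 members matched by model name. The between-library test used TMM effective library sizes (edgeR 4.0.16, R 4.3.3), models with an expected count of at least 5 in every library, 2 degrees of freedom and Benjamini-Hochberg adjustment with a threshold of 0.05, and was tested on simulated data. Coding sequences were aligned globally with Biopython 1.88. MicroRNA matches were scanned without gaps on the sense strand of spliced models. Python 3.11.15 with scipy 1.17.1 and pandas 2.3.3 was used.

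The members were taken by family and not by any measured value. Earlier results of these data were known when they and the lists were chosen. All 10 members were to be named, and the 2 highest and 2 lowest genes of each list by CPM per kb. Alternatives were TMM and RLE scaling, coding length, the longest transcript, other count minimums (10 and 1) and leaving out each library. A. lyrata tables gave library totals of 7211749 to 13786151 and were used for no level.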

Additional observations from a re-analysis of the deposited data

How the results depend on the processing

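The family total was 896.6 to 938 CPM when each library was left out and within 1 SD of 918 CPM under TMM and RLE scaling. The median level of the 10 members, 8.46 CPM per kb as the mean of library medians, was 7.83 to 8.84 with a library left out. With coding length in place of exon length it was 9.82, since untranslated regions no longer count. The order of the members was the same under each scaling, with the longest transcript, and without library 1 or 2. Of 9 neighbouring pairs, 7 did not overlap with either other length or without library 1 or 2, and all 9 without library 3. Ranges over fewer libraries overlap less easily, so the counts with a library left out are not strictly like the count over all libraries. AGO2 and AGO5 changed places with coding length and without library 3. The number of members that passed the between-library test was 4 under each scaling and count minimum, and 1 to 2 with a library left out. The share of all models that passed fell as well, from 11.1% to 7.94%, 6.54% and 3.69% without library 1, 2 and 3, where 1, 1 and 2 members passed. No paired analysis was possible because A. thaliana had 1 group of libraries. Depth limits AGO3 and AGO8, whose levels rest on 48 counts and 1 count.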
